A study of Arabidopsis thaliana with 12 samples.

Results

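The trehalose-6-phosphate synthase (TPS) genes of Arabidopsis thaliana were examined by RNAseq of whole seedlings. The 8 genes described are TPS1 (AT1G78580) and the class II genes TPS5 (AT4G17770), TPS6 (AT1G68020), TPS7 (AT1G06410), TPS8 (AT1G70290), TPS9 (AT1G23870), TPS10 (AT1G60140) and TPS11 (AT2G18700), taken by gene identifier from a table of 37885 genes. There were 12 libraries, 4 for each of 3 genotypes. The prt6-1erfvii line is a sextuple mutant that combines a mutation in PRT6 with T-DNA insertions in HRE1, HRE2, RAP2.2, RAP2.3 and RAP2.12. The prt6-1 line carries a mutation in PRT6 alone. Col-0 is the wild type. All seedlings were 7 days old, grown in continuous light on agar without sucrose, and harvested with no treatment. Each mutant genotype was represented by 1 line. PRT6 is the E3 ligase of the N-degron pathway that marks the group VII ethylene response factors (ERFVIIs), the transcription factors of the plant response to low oxygen, for degradation. Comparison of prt6-1erfvii with prt6-1 is meant to ask what changes when ERFVII function is removed from a background in which these proteins are stable. The libraries of these lines also differed in PRT6 transcript, as given below. Effects of that difference and of ERFVII loss cannot be told apart here.

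Trehalose-6-phosphate is a signal of sucrose supply in plants. A synthase makes it from UDP-glucose and glucose-6-phosphate, and a phosphatase (TPP) turns it into trehalose, which trehalase splits into glucose. TPS1 is the main active synthase of Arabidopsis and is needed for embryo development and for flowering. The class II proteins have a synthase-like and a phosphatase-like domain, and for most of them no clear enzyme activity is known. Trehalose-6-phosphate inhibits SnRK1, a kinase that is active when sugar is scarce, and transcripts of several class II genes are known to respond to sugar supply and to SnRK1.

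Gene positions and sequences were read from the TAIR10.1 assembly with its RefSeq annotation. TPS5 lies on chromosome 4 (9876172 to 9880386) and TPS11 on chromosome 2 (8108898 to 8112010). The other members lie on chromosome 1, TPS1 at 29552340 to 29560912, TPS6 at 25496928 to 25500584, TPS7 at 1954674 to 1958866, TPS8 at 26470795 to 26474833, TPS9 at 8432179 to 8435656 and TPS10 at 22176934 to 22181740. TPS1 has 18 introns in its longest coding model, TPS11 has 2 and each other member has 3. The coding sequences of TPS8 and TPS9 were the most alike of all 28 pairs, at 81.2% identity over 2567 aligned bases. TPS10 was next to both, with 72.4% identity to TPS8 and 72.2% to TPS9, and TPS5 and TPS6 shared 71.25%. TPS1 had 59.9% to 61.9% identity with the class II genes. No 50-base stretch of the exons of any member had a second copy on the 5 nuclear chromosomes.

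The 250 bases before the annotated start are shown for the 4 members with the highest fold changes and for TPS5, which changed in the opposite direction. For TPS8 and TPS9, capitals mark every copy of the 3 runs of 9 or more bases that both windows hold on the same strand. These runs were looked for after the similarity of the pair had been seen.
TPS8, chr1:26474834-26475083, minus strand: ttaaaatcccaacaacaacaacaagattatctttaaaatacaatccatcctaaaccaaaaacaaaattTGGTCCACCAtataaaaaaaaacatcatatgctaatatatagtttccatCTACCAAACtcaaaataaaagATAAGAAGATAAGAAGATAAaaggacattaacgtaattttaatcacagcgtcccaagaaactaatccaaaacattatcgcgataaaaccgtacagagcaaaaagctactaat
TPS9, chr1:8431929-8432178, plus strand: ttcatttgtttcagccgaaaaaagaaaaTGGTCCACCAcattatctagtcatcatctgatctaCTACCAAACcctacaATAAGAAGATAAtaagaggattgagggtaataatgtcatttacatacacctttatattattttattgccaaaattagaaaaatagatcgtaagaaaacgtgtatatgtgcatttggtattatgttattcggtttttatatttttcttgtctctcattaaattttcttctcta
For TPS10, TPS11 and TPS5, capitals mark matches on either strand to TATCCA, the element known from sugar-starvation promoters of rice, or to ACTCAT, an element bound by bZIP factors.
TPS10, chr1:22181741-22181990, minus strand: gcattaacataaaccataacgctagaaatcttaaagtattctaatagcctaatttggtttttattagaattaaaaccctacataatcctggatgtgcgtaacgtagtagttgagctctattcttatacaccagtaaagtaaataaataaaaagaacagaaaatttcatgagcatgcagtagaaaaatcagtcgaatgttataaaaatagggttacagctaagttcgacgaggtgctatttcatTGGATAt
TPS11, chr2:8108648-8108897, plus strand: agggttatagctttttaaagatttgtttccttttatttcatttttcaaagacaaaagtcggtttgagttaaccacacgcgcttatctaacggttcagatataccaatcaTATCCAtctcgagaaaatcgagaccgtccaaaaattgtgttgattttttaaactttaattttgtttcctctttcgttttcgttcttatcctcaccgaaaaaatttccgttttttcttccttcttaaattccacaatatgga
TPS5, chr4:9875922-9876171, plus strand: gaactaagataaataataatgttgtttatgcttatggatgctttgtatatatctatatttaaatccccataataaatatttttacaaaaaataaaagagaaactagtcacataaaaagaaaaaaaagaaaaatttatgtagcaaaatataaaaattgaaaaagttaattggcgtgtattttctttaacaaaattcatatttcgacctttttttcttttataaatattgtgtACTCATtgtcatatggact
No other gene lay in any of these windows. The longest run, ATAAGAAGATAA, began 112 and, in an overlapping second copy, 104 bases before the start of TPS8, and 172 bases before that of TPS9, and it was found on either strand in 10 of 27443 protein-coding genes (0.0364%). TGGTCCACCA began at 182 and 222 bases and was found in 18 genes (0.0656%). CTACCAAAC began at 133 and 187 bases and was found in 89 genes (0.324%). Over all 28 pairs of members the longest shared run of the windows was 7 to 12 bases, and the 12-base run of TPS8 and TPS9 was the longest. It was only just so, as TPS5 shared runs of 11 bases with TPS8, with TPS9 and with TPS1. TPS5 changed in the opposite direction to TPS8 and TPS9.

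Known short elements were searched on both strands in the same 250 bases. TATCCA was present in 3 of 8 members (TPS6, TPS10 and TPS11), against 13.6% of all protein-coding genes. ACTCAT was present in 2 members (TPS5 and TPS6), against 12.3%, and ACGTG, the core of the abscisic acid response element, in 2 members (TPS6 and TPS9), against 22.9%. The G-box CACGTG, which contains ACGTG, was present in 1 member (TPS6), against 6.49%. Neither the GCC-box GCCGCC nor the consensus of the hypoxia-responsive promoter element had an exact match in any member. In all genes these were found in 1.87% and 0.0109% of windows. Within 1000 bases TATCCA was present in 7 of 8 members against 43.8% of all genes, ACTCAT in 4 against 44.1% and ACGTG in 4 against 54.4%. No exact match to the consensus of the hypoxia-responsive promoter element lay in the 1000 bases or the gene body of any of the 8 members. Such matches were rare, in 0.0692% of the 1000-base windows of all genes and in 79 of 27444 gene bodies. Their absence from 8 genes therefore says little. The paper searched for the element with the motif scanner FIMO, which was not run here. The matches given here describe letters in a window and were not tested for binding.

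The 12 libraries held between 23156637 and 30582461 reads counted to genes. Transcripts of all 6 mutated genes were lower in prt6-1erfvii than in the libraries labelled prt6-1. RAP2.3 was at 0.37 to 0.94 CPM in prt6-1erfvii, against 57.3 to 83.4 CPM in prt6-1 and 77.2 to 98.0 CPM in Col-0, where CPM is the read count scaled to library size with TMM factors. HRE1 had 0 counts in all 4 prt6-1erfvii libraries. RAP2.12 and RAP2.2 fell less, with 51.3 ± 2.45 and 58.5 ± 1.98 CPM in prt6-1erfvii, against 98.7 ± 8.32 and 109 ± 3.59 CPM in prt6-1 and 96.0 ± 5.17 and 105 ± 5.04 CPM in Col-0 (SD, n = 4 each). PRT6 was at 7.22 to 10.1 CPM in prt6-1erfvii, but the libraries labelled prt6-1 had 73.6, 61.3, 76.4 and 45.1 CPM, against 62.7, 64.9, 65.2 and 56.3 CPM in Col-0. PRT6 levels thus overlapped between prt6-1 and Col-0, and a library is called prt6-1 in what follows because it is labelled so. HRE2, itself 1 of the mutated genes of prt6-1erfvii, did not overlap between them, with 2.67 ± 0.55 CPM in prt6-1, against 0.70 ± 0.42 CPM in Col-0 (SD, n = 4 each, log2 fold change 1.94, SE 0.32, edgeR adjusted p = 0.0015). Replicate 4 of prt6-1 stood apart from the other libraries of its group, with a chi-square per degree of freedom of 12.02 to 15.1 against them, where those 3 differed among themselves by 5.12 to 5.74. In prt6-1erfvii, replicates 1 and 3 differed by 11.4, and the other pairs of that genotype by 5.10 to 7.53. Root markers also differed between genotypes. Of 6 markers, the root hair genes EXPA7, COBL9 and RSL4 fell in prt6-1erfvii against both other genotypes, the myrosinase gene PYK10 rose, and the endodermal genes CASP1 and CASP2 did not pass the test. Summed over the 6 markers, of which none was at 0, the level was 5177 to 5947 CPM in prt6-1erfvii, 4513 to 4997 CPM in prt6-1 and 4332 to 4979 CPM in Col-0. Nearly all of this sum was PYK10, which alone was at 5141 to 5912 CPM in prt6-1erfvii, 4463 to 4938 CPM in prt6-1 and 4292 to 4925 CPM in Col-0. The 5 shoot markers, none at 0, summed to 41410 to 46838 CPM in prt6-1erfvii, 40636 to 45177 CPM in prt6-1 and 45782 to 47297 CPM in Col-0. Of these, LHCB1.3 was lower than in Col-0 in prt6-1erfvii and in prt6-1 (log2 fold change -0.20 and -0.26, edgeR adjusted p = 0.00803 and 0.00285). GAPA was higher in prt6-1erfvii than in prt6-1 (log2 fold change 0.15, edgeR adjusted p = 0.0366). No other shoot marker passed the test. Transcripts of 5 seed storage genes summed to 0.30 to 83.5 CPM in prt6-1erfvii, 2.83 to 22.5 CPM in prt6-1 and 0.24 to 41.3 CPM in Col-0. Their part in the results for TPS genes was not tested. In whole seedlings, fewer cells of a type and less RNA per cell cannot be told apart.

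All 8 members changed in prt6-1erfvii against the libraries labelled prt6-1. TPS6, TPS7, TPS8, TPS9, TPS10 and TPS11 were higher and TPS1 and TPS5 were lower, in the edgeR quasi-likelihood test, with p-values adjusted by Benjamini-Hochberg over 20857 genes. The same 6 genes were higher and the same 2 lower against Col-0, over 20747 genes. The 4 prt6-1erfvii libraries serve in both comparisons, which are therefore not independent. In prt6-1 against Col-0 only TPS8 passed the test. Of all genes tested, 16.6% were called higher and 14.7% lower in prt6-1erfvii against prt6-1, and 18.5% were higher and 18.7% lower in prt6-1erfvii against Col-0. In prt6-1 against Col-0 1.09% were called higher and 1.09% lower, 455 genes in all, which became 1231 without prt6-1 replicate 4 and 281 without Col-0 replicate 2. The prt6-1erfvii libraries did not overlap those of prt6-1 for 8 of 8 members, against 31.2% of all genes tested, nor those of Col-0 for 8 of 8 members, against 34.8%. The libraries of prt6-1 and Col-0 did not overlap for 1 of 8, against 7.76%. The members were chosen with earlier results of these data known, so these counts are descriptive. The median log2 fold change of the members was 0.87 in prt6-1erfvii against prt6-1 and 0.78 against Col-0, and for all genes tested it was 0.00 and -0.01.

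**Figure D1:**
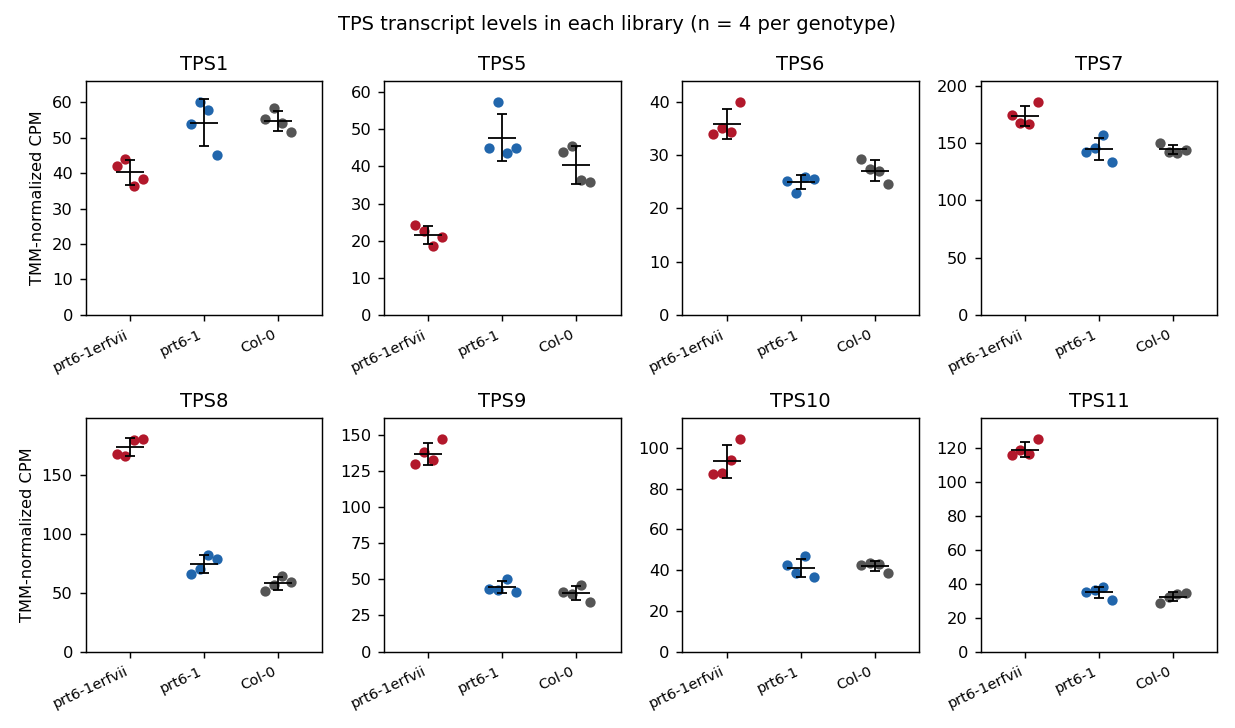
TMM-normalised CPM of each of the 8 TPS genes (vertical axis from 0, its range set per gene) in the 4 libraries of prt6-1erfvii, prt6-1 and Col-0; points are libraries, the horizontal mark is the mean and the bar 1 SD. In every panel the 4 prt6-1erfvii libraries lie apart from the 8 others, below them for TPS1 and TPS5 and above them for the rest.

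TPS1, the active synthase, had 42.2, 43.9, 36.3 and 38.5 CPM in prt6-1erfvii, against 54.0, 60.01, 57.9 and 45.1 CPM in prt6-1 and 55.2, 58.3, 54.3 and 51.5 CPM in Col-0. The highest prt6-1erfvii library was just below the lowest prt6-1 library, replicate 4, and well below all Col-0 libraries. TPS1 fell by 0.42 on the log2 scale in prt6-1erfvii against prt6-1 (SE 0.09, edgeR adjusted p = 0.00129) and by 0.45 against Col-0 (SE 0.06, adjusted p = 5.8e-06). Without replicate 4 of prt6-1 it stayed lower than in prt6-1, as it did when each other library was left out. On the opposite strand, 99 bases of the TPS1 exons overlap AT1G78570 and 429 bases overlap the non-coding AT1G09827, which was at 0 in all libraries. AT1G78570 averaged 214 CPM in prt6-1erfvii, 279 CPM in prt6-1 and 279 CPM in Col-0, with a log2 fold change of -0.37 against prt6-1 (edgeR adjusted p = 0.000314). The overlap with AT1G78570 is 1.85% of the TPS1 exon length, and since a strand setting for counting is not given in the sources used here, reads from it cannot be told apart by strand. The other class I genes were at the limit of counting. TPS2 had 0 counts in all 12 libraries, TPS3 had 2 counts in each of 2 prt6-1 libraries and 0 elsewhere, and TPS4 had 0 to 6 counts, so that none was tested.

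TPS5, a class II gene known for a part in heat tolerance, was the member with the largest decrease. It had 24.3, 22.7, 18.6 and 20.9 CPM in prt6-1erfvii, against 44.9, 57.3, 43.8 and 45.1 CPM in prt6-1 and 43.9, 45.6, 36.3 and 35.8 CPM in Col-0. The 4 prt6-1erfvii libraries were close together and far below the others, and prt6-1 replicate 2 was the highest of all. TPS5 fell by 1.13 on the log2 scale against prt6-1 (SE 0.10, edgeR adjusted p = 8.8e-08), a level 2.18-fold lower, and by 0.90 against Col-0 (SE 0.09, adjusted p = 1.1e-07). Between prt6-1 and Col-0 its log2 fold change was 0.24 (95% interval 0.04 to 0.45, adjusted p = 0.294), and without prt6-1 replicate 2 it was 0.14. TPS5 shares 128 bases with AT4G17780 on the opposite strand, which averaged 0 CPM in prt6-1erfvii, 0 CPM in prt6-1 and 0.02 CPM in Col-0.

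TPS6, a class II gene with a known role in cell shape, was closest to TPS5 in coding sequence but changed in the other direction. Its levels were 34.0, 35.1, 34.4 and 39.9 CPM in prt6-1erfvii, against 25.1, 22.97, 25.9 and 25.5 CPM in prt6-1 and 29.3, 27.4, 27.1 and 24.6 CPM in Col-0. Every prt6-1erfvii library was above every other library, by a small margin. TPS6 rose by 0.54 against prt6-1 (SE 0.08, edgeR adjusted p = 2.4e-05) and by 0.41 against Col-0 (SE 0.07, adjusted p = 7.8e-05). TPS6 shares 207 bases with AT1G68030 on the opposite strand, which averaged 1.34 CPM in prt6-1erfvii, 1.32 CPM in prt6-1 and 1.20 CPM in Col-0.

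TPS7 was the most abundant member in prt6-1 and Col-0 and changed least in prt6-1erfvii. It had 175, 168, 166 and 186 CPM in prt6-1erfvii, against 142, 145, 157 and 134 CPM in prt6-1 and 150.3, 142, 141 and 144 CPM in Col-0. The groups did not overlap, but the increase was only 1.21-fold against prt6-1 and 1.20-fold against Col-0 (edgeR adjusted p = 0.00284 and 0.000263).

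TPS8, TPS9 and TPS10, which form the group most alike in coding sequence, and TPS11 rose most. TPS8 had 168, 167, 179.7 and 181 CPM in prt6-1erfvii, against 65.7, 70.5, 82.6 and 78.5 CPM in prt6-1 and 51.5, 57.0, 64.3 and 59.4 CPM in Col-0. It stood in 3 steps, with prt6-1erfvii far above prt6-1 and the lowest prt6-1 library just above the highest Col-0 library. The log2 fold change was 1.24 in prt6-1erfvii against prt6-1 (SE 0.07, edgeR adjusted p = 5.2e-10) and 1.58 against Col-0 (SE 0.06, adjusted p = 3.9e-15). TPS8 was also the only member called in prt6-1 against Col-0, 1.28-fold higher (log2 fold change 0.36, SE 0.08, edgeR adjusted p = 0.0184). The call in prt6-1 against Col-0 was lost without Col-0 replicate 1 (adjusted p = 0.0888), without Col-0 replicate 2 (adjusted p = 0.0703) and without prt6-1 replicate 3 (adjusted p = 0.0765), and without prt6-1 replicate 4 it was kept (adjusted p = 0.0194). Its direction cannot be set against the PRT6 transcript, which did not separate these 2 genotypes.

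TPS9, the nearest relative of TPS8, had 129.9, 138, 132 and 147 CPM in prt6-1erfvii, against 43.3, 42.8, 50.5 and 41.5 CPM in prt6-1 and 41.4, 39.7, 46.1 and 34.7 CPM in Col-0. The prt6-1 and Col-0 libraries overlapped, and both lay far below prt6-1erfvii. The increase was 3.10-fold against prt6-1 (log2 fold change 1.63, SE 0.07, edgeR adjusted p = 1.3e-11) and 3.38-fold against Col-0 (log2 fold change 1.76, SE 0.07, adjusted p = 1.9e-14). The log2 fold change of TPS9 in prt6-1 against Col-0 was 0.14 (95% interval -0.04 to 0.32, adjusted p = 0.548).

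TPS10 had 86.9, 87.7, 94.2 and 104 CPM in prt6-1erfvii, against 42.5, 38.4, 46.9 and 36.4 CPM in prt6-1 and 42.5, 43.6, 43.1 and 38.7 CPM in Col-0. The prt6-1 and Col-0 libraries were mixed and the prt6-1erfvii libraries stood alone. TPS10 rose 2.29-fold against prt6-1 (log2 fold change 1.20, SE 0.08, edgeR adjusted p = 5.8e-09) and 2.22-fold against Col-0 (log2 fold change 1.15, SE 0.06, adjusted p = 2.0e-12).

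TPS11, known in Arabidopsis for a part in defence against aphids, had the largest increase of the family. It had 116, 119, 117 and 125 CPM in prt6-1erfvii, against 35.1, 36.1, 38.3 and 30.3 CPM in prt6-1 and 28.6, 32.1, 34.2 and 34.7 CPM in Col-0. These 4 prt6-1erfvii libraries were close to each other, and the prt6-1 and Col-0 libraries overlapped. The increase was 3.44-fold against prt6-1 (log2 fold change 1.78, SE 0.07, edgeR adjusted p = 5.7e-12) and 3.68-fold against Col-0 (log2 fold change 1.88, SE 0.06, adjusted p = 1.6e-16). The differences in size between members of the group were not tested.

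**Figure D2:**
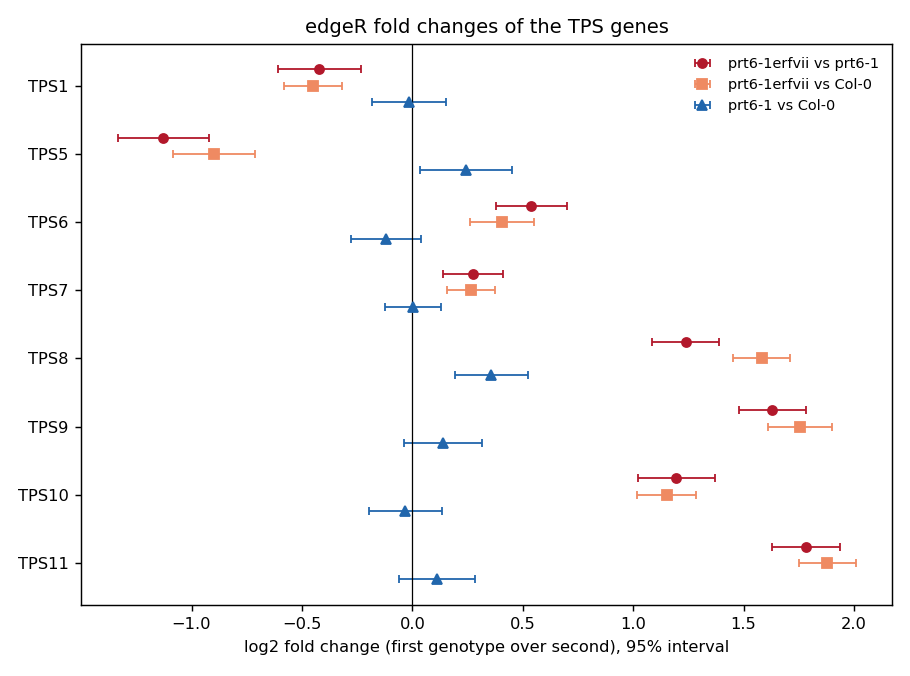
log2 fold change (horizontal axis, first genotype over second) of the 8 TPS genes from edgeR, with 95% intervals, for prt6-1erfvii against prt6-1 (circles), prt6-1erfvii against Col-0 (squares) and prt6-1 against Col-0 (triangles). Intervals of both prt6-1erfvii comparisons lie on one side of 0 for every gene, while the prt6-1 triangles lie between -0.12 and 0.36.

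Levels were compared between genes per kb of exon length. In Col-0, TPS7 was the most abundant member at 39.2 ± 1.14 CPM per kb (SD, n = 4), and it was followed by TPS8 at 17.3 ± 1.59 CPM per kb. From TPS8 down to TPS10, each gene overlapped its neighbour in the order. TPS6 was the lowest, at 7.60 ± 0.55 CPM per kb, below all TPS10 libraries. In prt6-1 the order was the same, with TPS7 at 39.2 ± 2.602 CPM per kb, and TPS8 at 22.2 ± 2.28 CPM per kb lay apart from TPS9 below it. In prt6-1erfvii TPS8 (51.9 ± 2.25 CPM per kb), TPS7 (47.1 ± 2.39 CPM per kb) and TPS9 (46.0 ± 2.56 CPM per kb) led the order, with TPS8 overlapping TPS7 and TPS7 overlapping TPS9. TPS11 came next and apart from TPS9, at 40.5 ± 1.496 CPM per kb, and TPS1 (7.53 ± 0.65 CPM per kb) and TPS5 (6.36 ± 0.72 CPM per kb) were lowest. The order depends on the length used. The exon union of TPS1 has 5341 bases, of which 2829 are coding, and per kb of coding length it had rank 3 in prt6-1 and Col-0, in place of rank 6. In Col-0 TPS9 then had rank 6 in place of 3 and TPS10 rank 4 in place of 7. In prt6-1erfvii TPS7 then had rank 1 and TPS8 rank 2.

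The sum of the 8 members was 231 ± 9.43 CPM per kb in prt6-1erfvii, 129 ± 7.76 CPM per kb in prt6-1 and 120.5 ± 2.95 CPM per kb in Col-0 (SD, n = 4 each). TPS8 to TPS11 made up 69.2 ± 0.97% of this sum in prt6-1erfvii, against 45.3 ± 1.66% in prt6-1 and 42.8 ± 2.28% in Col-0. The share of TPS7 was 20.4% in prt6-1erfvii, against 30.4% in prt6-1 and 32.5% in Col-0, although its own level was higher in prt6-1erfvii. TPS1 and TPS5 together were 6.03 ± 0.69% of the sum in prt6-1erfvii, against 18.8 ± 1.94% in prt6-1 and 18.4 ± 1.44% in Col-0.

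**Figure D3:**
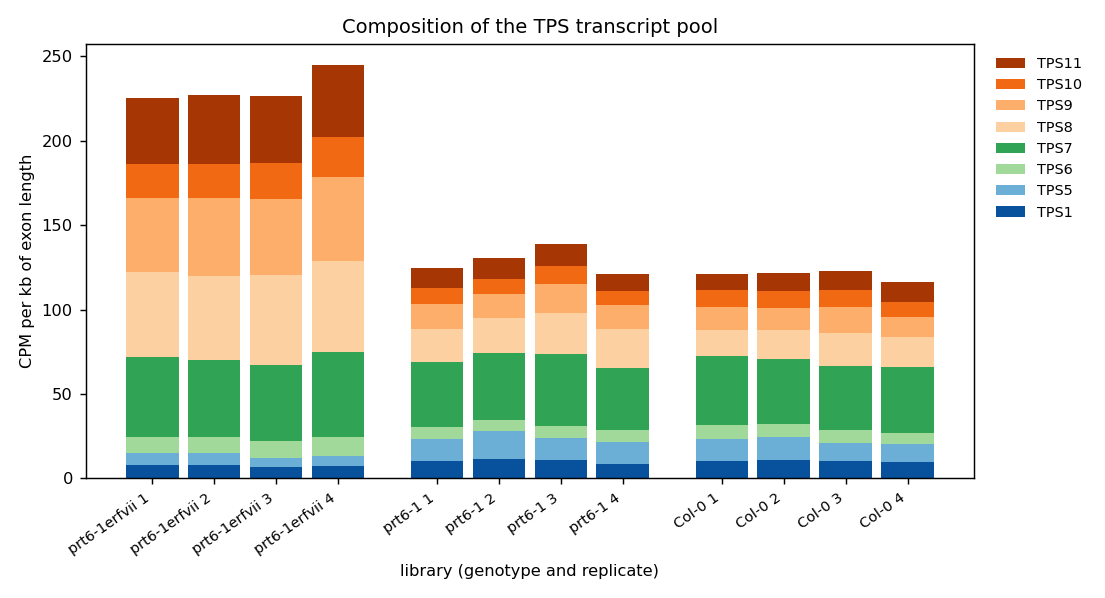
Summed level of the 8 TPS genes in each library, as CPM per kb of exon length (vertical axis), stacked by gene; libraries are grouped as prt6-1erfvii, prt6-1 and Col-0. The prt6-1erfvii bars reach 225 to 245 CPM per kb, against 121 to 139 for prt6-1 and 116 to 123 for Col-0, and the upper 4 segments, TPS8 to TPS11, hold most of that difference.

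Of 11 TPP and trehalase genes, the other enzymes of the pathway, 10 were tested. In prt6-1erfvii 3 rose and 1 fell against prt6-1, and 3 rose and 1 fell against Col-0. Of all genes tested, 16.6% rose and 14.7% fell against prt6-1, and 18.5% rose and 18.7% fell against Col-0. With 10 genes, the counts are not far from these shares. Among the genes called, TRE1 and TPPG rose most in both comparisons, and the gene that fell was TPPE in both. Against prt6-1, TPPH had a larger log2 fold change (0.42) than TPPG (0.36) but was not called (edgeR adjusted p = 0.0516). TRE1, the trehalase gene, had 14.1, 11.1, 17.1 and 13.7 CPM in prt6-1erfvii, against 6.74, 7.79, 7.03 and 6.66 CPM in prt6-1 and 4.97, 5.005, 5.45 and 3.56 CPM in Col-0. It was separate in all 3 genotypes, and its log2 fold changes were 1.00 in prt6-1erfvii against prt6-1, 1.56 in prt6-1erfvii against Col-0 and 0.57 in prt6-1 against Col-0 (edgeR adjusted p = 6.0e-06, 1.1e-08 and 0.0321). TPPE, a phosphatase gene, had 8.65, 6.65, 8.93 and 7.38 CPM in prt6-1erfvii, against 13.3, 13.9, 11.8 and 13.3 CPM in prt6-1 and 17.4, 15.8, 15.1 and 17.2 CPM in Col-0. It fell by 0.71 on the log2 scale against prt6-1 and by 1.05 against Col-0. TPPC was at 0 to 0.04 CPM and was not tested. The median log2 fold change of the list was 0.14 against prt6-1 and 0.02 against Col-0.

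Of 15 genes for SnRK1 subunits, its activating kinases, bZIP factors of the C and S1 groups and the glucose sensor HXK1, 4 rose and 3 fell in prt6-1erfvii against prt6-1, and 5 rose and 4 fell against Col-0. Among all genes tested, 16.6% rose and 14.7% fell against prt6-1, and 18.5% rose and 18.7% fell against Col-0. The list had a median of -0.01 against prt6-1 and 0.07 against Col-0. bZIP1, a factor of the S1 group, rose by 1.62 against prt6-1 and AKINBETA1, a regulatory subunit, rose by 1.28 (SE 0.08, edgeR adjusted p = 2.3e-09). In the other direction bZIP11, also of the S1 group, fell by 0.59 and HXK1 by 0.47. The 2 catalytic subunits were picked out after their values had been seen. KIN10 had a log2 fold change of -0.04 against prt6-1 (95% interval -0.17 to 0.09, edgeR adjusted p = 0.661), while KIN11 rose by 0.51. The lowest edgeR adjusted p of the 15 genes in prt6-1 against Col-0 was 0.0504, for bZIP2 (log2 fold change 0.23).

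Of 9 genes known to rise when sugar runs out, 9 rose in prt6-1erfvii, both against prt6-1 and against Col-0, with median log2 fold changes of 2.15 and 2.63. Among all genes tested, 16.6% and 18.5% rose in these comparisons. The list was chosen with earlier results of these data known, so the count describes it and is not independent support. ASN1, an asparagine synthetase, had 319, 273, 356 and 339.8 CPM in prt6-1erfvii, against 11.9, 9.31, 18.02 and 5.99 CPM in prt6-1 and 10.3, 6.90, 5.76 and 4.43 CPM in Col-0. DIN10, a raffinose synthase-like gene, had 1215, 1259.6, 1421 and 1336 CPM in prt6-1erfvii, against 299, 264, 372 and 256 CPM in prt6-1 and 218, 209, 206 and 181 CPM in Col-0. In prt6-1erfvii both genes were far above their levels in every other library. DIN10 was the 1 gene of the list that rose in prt6-1 against Col-0 (log2 fold change 0.55, edgeR adjusted p = 0.0259). BCAT2, a branched-chain aminotransferase, had 82.3, 77.1, 98.5 and 84.5 CPM in prt6-1erfvii, against 5.87, 3.28, 8.80 and 4.03 CPM in prt6-1 and 7.32, 3.90, 2.49 and 4.19 CPM in Col-0. The smallest change, picked out after the values had been seen, was that of DRM1, a dormancy-associated gene, whose libraries overlapped between prt6-1erfvii and prt6-1 (log2 fold change 0.51, SE 0.13, edgeR adjusted p = 0.0150).

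**Figure D4:**
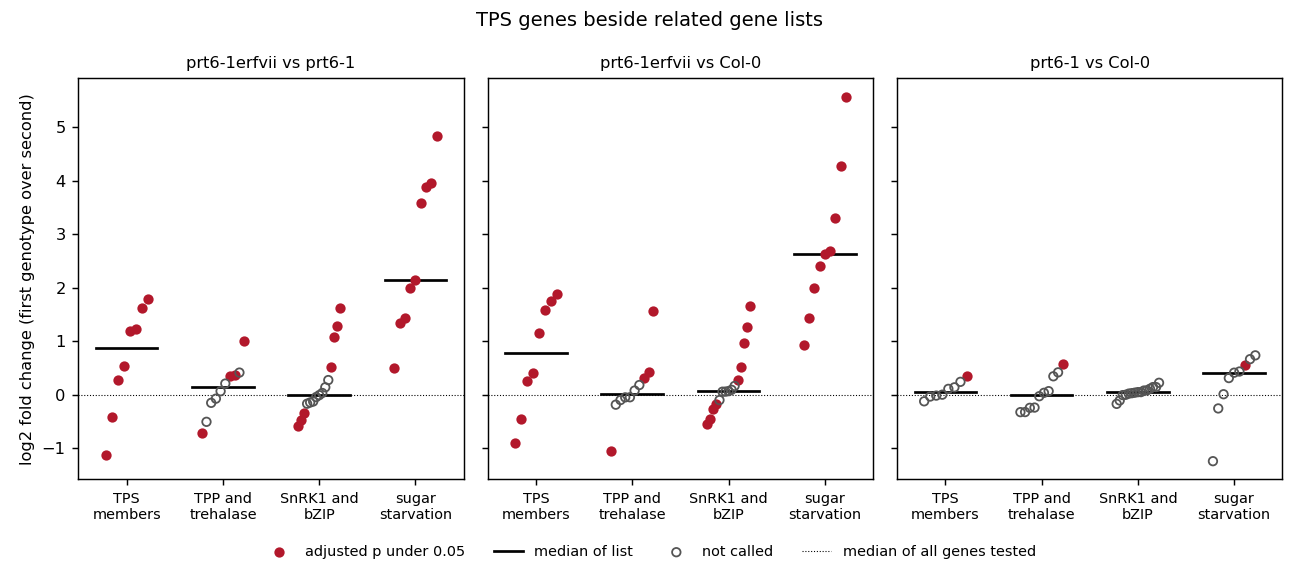
log2 fold change (vertical axis, first genotype over second) of the TPS genes and of 3 lists of related genes in the 3 comparisons; filled points passed the edgeR test at an adjusted p of 0.05, open points did not, the bar is the median of the list and the dotted line the median of all genes tested. TPS genes lie on both sides of the dotted line in the prt6-1erfvii panels, with a median of 0.87 and 0.78, and all 9 sugar starvation genes lie above it.

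The likeness of other genes to each member was measured as Pearson's r of log2 CPM over the 12 libraries, which share 3 genotypes, so that a high r mainly reflects the difference of prt6-1erfvii from the rest. The gene most like TPS8 was BT2, which encodes a BTB and TAZ domain protein, with r = 0.995 and r = 0.891 after the genotype means were removed. BT2 averaged 490.3 ± 25.6 CPM in prt6-1erfvii, against 184 ± 27.4 CPM in prt6-1 and 138 ± 22.5 CPM in Col-0 (SD, n = 4 each). The gene most like TPS9 was AT1G02660 (r = 0.995), that most like TPS10 was ERDL6, a sugar transporter of the vacuole (r = 0.994), and that most like TPS11 was the protein kinase gene STY46 (r = 0.994). The highest r was 0.976 for TPS1 (AT2G22610), 0.981 for TPS5 (AT1G71870), 0.973 for TPS6 (OPT4, an oligopeptide transporter) and 0.971 for TPS7 (AT3G11560). For TPS5, APL3, a subunit of the starch enzyme ADP-glucose pyrophosphorylase, had rank 3 (r = 0.976), behind AT5G41670 (r = 0.978). APL3 had 9.75 ± 1.09 CPM in prt6-1erfvii, 27.0 ± 3.73 CPM in prt6-1 and 21.2 ± 3.50 CPM in Col-0. For TPS1, PGI1, the plastid phosphoglucose isomerase, had rank 3 (r = 0.961), behind FEI2 (r = 0.962). APL3 and PGI1 were picked out for their place in carbohydrate metabolism after the values had been seen. Other genes of rank 2 or 3 included PHYA for TPS7, AAE5 for TPS8 and PIF3 for TPS11. Whether carbohydrate genes are more common among the genes most like the members was not tested. Among the members themselves, TPS8 to TPS11 had r of 0.948 to 0.988 with each other. Within genotypes the values for the same 6 pairs were 0.23 to 0.75, lowest for TPS8 with TPS10 and highest for TPS9 with TPS10. TPS1 and TPS5 had r = 0.901 over the 12 libraries and 0.647 within genotypes.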

How the data were processed

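Poly(A) RNA of 12 whole-seedling samples (3 genotypes, 4 biological replicates each) was sequenced from directional libraries. The deposited values are raw counts per gene, which the authors made with featureCounts 1.6.0 from HISAT2 2.1.0 alignments (build TAIR10) of skewer-trimmed reads. Reads with several alignments had been dropped. A strand setting for counting is not given in the sources used here.

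For each comparison its 8 libraries were fitted in edgeR 4.0.16 (R 4.3.3) with TMM factors, after filterByExpr, by the robust quasi-likelihood method. A call is an adjusted p under 0.05 over all genes tested. The standard error is the log2 fold change divided by the root of F. Levels are CPM with TMM factors over 12 libraries (prior count of 2 for r). Alternatives were DESeq2 1.42.0, RLE factors, other filters, 1 fit over 12 libraries, a replicate block and each library left out. Coding sequences were aligned end to end with Biopython 1.88. Members had 426 to 5554 counts per library.

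The members and lists were chosen with earlier results of these data known. Named genes are all members, at most 2 per direction with the largest changes of each list and comparison, the mutated genes, and the 3 genes most like each member by r; exceptions are stated.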

Additional observations from a re-analysis of the deposited data

Results flagged for a closer look

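TPS5 in prt6-1 replicate 2 stood apart from the other 3 libraries of its genotype, at 57.3 CPM against 43.8 to 45.1 CPM. On the scale of log2 CPM, its gap to the nearest library was 0.887 of the range of the group, above the critical value of the Dixon test for 4 samples. This was 1 of 24 groups examined (8 members in 3 genotypes), and chance flags about 1 in 20. TPS5 was lower in prt6-1erfvii than in prt6-1 with or without this library.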

How the results depend on the processing

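In both prt6-1erfvii comparisons the 8 members kept their direction and their call in all 112 alternatives each. In prt6-1 against Col-0, 102 of 112 were unchanged. Leaving out 1 library at a time gave 0 to 1 members called, and 281 (without Col-0 replicate 2) to 1231 (without prt6-1 replicate 4) genes called in place of 455. The log2 fold change of TPS8 was 0.30 without Col-0 replicate 1, 0.35 without Col-0 replicate 2 and 0.30 without prt6-1 replicate 3, no longer past the threshold. Values near 0 changed sign. With 1 library left out at a time TPS1 ranged from -0.067 to 0.066 (above 0 at 0.019 without Col-0 replicate 2 and at 0.066 without prt6-1 replicate 4), TPS10 from -0.11 to 0.023 (above 0 without prt6-1 replicate 4) and TPS7 from -0.044 to 0.040 (below 0 at -0.0021 without Col-0 replicate 2, -0.012 without Col-0 replicate 3, -0.00066 without prt6-1 replicate 2 and -0.044 without prt6-1 replicate 3). The cause was not tested. Deviations of same-numbered libraries had correlations from -0.08 to 0.16, and those of other pairs had -0.16 to 0.12. For prt6-1erfvii with Col-0 the same-numbered values were 0.06, 0.16, 0.12 and -0.04. Whether the numbers pair samples cannot be told from such small values. With a replicate block, 5721, 8406 and 540 genes were called in prt6-1erfvii against prt6-1, prt6-1erfvii against Col-0 and prt6-1 against Col-0, with 8, 8 and 1 members among them. Without the block 6524, 7727 and 455 genes were called. DESeq2 called 6686, 7649 and 679. The order of members by level changed with the length used, in Col-0 by 3 places each for TPS1, TPS9 and TPS10. The scale per kb of coding length was chosen after seeing the data.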
